A study of Mus musculus with 18 samples.

Results

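Retnlb-negative goblet cells of the mouse ileum were examined among the progeny of Lgr5+ stem cells, 5 days after Setdb1 deletion was induced. A barcode of the lineage-traced single-cell libraries was chosen by its own values: 500 to 18000 unique molecular identifiers (UMIs, each a captured RNA molecule), 200 to 4000 genes, under 5% of UMIs from mitochondrial genes, at least 1.5% of UMIs from Muc2, Zg16, Clca1 and Fcgbp together, no Retnlb UMI, and under 20% of UMIs from genes whose names start with Defa. The rule found 2323 cells among 26266 barcodes that met the UMI, gene and mitochondrial limits in the 4 lineage-traced libraries, and among 51959 such barcodes in all 8 libraries of the series. WT replicate 1 held 765 of these cells, WT replicate 2 held 253, Setdb1-KO replicate 1 held 629 and Setdb1-KO replicate 2 held 676. Retnlb-positive goblet cells, which met every limit but carried Retnlb, numbered 31, 12, 67 and 69 in the same order.

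Goblet cells are secretory cells of the intestinal epithelium. They arise from crypt stem cells through progenitors that express the transcription factor Atoh1, and they mature while they move towards the villus. They fill a large granule store with the gel-forming mucin Muc2, which is glycosylated and packed with partner proteins such as Fcgbp, Clca1 and the lectin-like Zg16, and they also release trefoil peptides and antimicrobial proteins. Retnlb encodes RELMβ, a bactericidal protein that goblet cells make in a variable fraction of cells.

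The study asked how stem cells and their offspring respond to loss of Setdb1, a methyltransferase that places repressive marks on lysine 9 of histone H3. Both genotypes were on a C57Bl6 background and carried Lgr5-GFP-CreERT2, an allele in which the Lgr5 locus drives GFP and a tamoxifen-activated Cre recombinase, and nTnG, a reporter that switches permanently to GFP after Cre has acted. Mice of the WT group had no other engineered allele, and mice of the Setdb1-KO group also carried Setdb1lox/lox. All mice were male, 60 to 65 days old, and had received 1 injection of tamoxifen at 70 mg/kg. GFP+ cells were sorted from a crypt-enriched preparation of ileum. Cre is active only in cells that express the Lgr5 allele, and that allele is known to be silent in many crypts, so traced cells are the offspring of those stem cells in which it worked. A second sort, of Lgr5+ cells from mice without the reporter, gave 2 WT and 2 Setdb1-KO libraries that serve here as a comparison. The study's methods speak of single-cell data from biological replicates, and the labels do not tie the 2 libraries of a genotype to named animals, so p-values measure the spread between libraries.

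The lineage-traced libraries held 16881518 to 43046925 UMIs, and the median cell of the chosen population held 1499, 1870, 910 and 2664.5 UMIs in WT replicates 1 and 2 and Setdb1-KO replicates 1 and 2. WT replicate 2 stood apart: 42.2% of its UMIs lay in barcodes of at most 100 UMIs, against 5.54% to 13.0% in the other 3, and 19.8% of its chosen cells were marked as doublets, against 4.77% to 9.62%. Setdb1-KO replicate 1 was the shallowest, with 54.5% of its chosen cells under 1000 UMIs. The RNA in empty droplets (barcodes of at most 100 UMIs) also differed by genotype: Defa genes, which encode Paneth cell defensins, made up 37.2% and 39.4% of it in WT and 16.8% and 16.8% in Setdb1-KO. In the chosen cells Defa genes made up 7.51% and 8.60% of UMIs in WT and 1.95% and 2.52% in Setdb1-KO. If every Defa UMI of these cells came from free RNA, free RNA would give at most 20.2%, 21.8%, 11.6% and 15.0% of their UMIs, values used below as an upper bound. The Defa limit removed 77 and 88 Retnlb-free goblet barcodes from the WT libraries and 5 and 5 from the Setdb1-KO libraries. No barcode was shared between the chosen cells of different traced libraries, and the GFP transcript gave 0 UMIs in them although sorting used GFP.

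The label was checked on genes that the rule had not used. Tff3, a trefoil peptide that stabilises mucus, was found in 85.3%, 88.7%, 97.6% and 96.3% of chosen cells after each cell was thinned to 1000 UMIs, and in 35% to 45.8% of low-mucus cells of the same libraries (under 0.5% of UMIs from the 4 mucus genes). Cells under that depth were left out, which kept 627, 222, 286 and 595 chosen cells, and without thinning Tff3 was found in 86.5%, 90.1%, 96.7% and 97.2%. Atoh1 was found in 9.73%, 7.66%, 14.7% and 12.3% of thinned cells, against 1.05% to 1.94% of low-mucus cells. Spdef, which drives goblet cell maturation, was found in 8.93%, 5.41%, 4.20% and 7.73%, against 0.637% to 1.06%. Tff3, Atoh1 and Spdef were therefore detected more often in the chosen cells than in the background of their own libraries. The goblet product Reg4 was found in 4.63%, 6.31%, 4.55% and 4.37% of thinned cells, against 6.42%, 6.99%, 6.44% and 3.39% of low-mucus cells. Ang4, another product, was less frequent in each library (37.3%, 45.9%, 14.3% and 11.8% against 45.5%, 51.5%, 21.6% and 14.6%). The Paneth marker Mmp7 was found in 24.2%, 16.7%, 15.0% and 19.7% against 20.3%, 20.1%, 13.3% and 6.91%. Agr2, a disulfide isomerase needed for Muc2 folding, was present in 96.4% to 99.5% of the thinned cells and in 38.3% to 56.5% of low-mucus cells. Spink4, a protease inhibitor of goblet granules, was present in all thinned cells but also in 76.8% to 94.5% of low-mucus cells. Markers of other cells were present too. The summed level of 20 enterocyte markers was 5185, 13395, 2868 and 3256 CPM (UMIs of a gene scaled to a common library size), and the summed level of 10 Paneth markers was 8749, 11765, 2911 and 4978 CPM. In low-mucus cells of the same libraries the enterocyte sums were 9245, 9936, 2563 and 3578 CPM and the Paneth sums 15251, 13546, 4601 and 3008 CPM. The chosen cells thus exceeded the low-mucus cells for enterocyte markers in WT replicate 2 and Setdb1-KO replicate 1, and for Paneth markers in Setdb1-KO replicate 2. The 12 T cell markers summed to 0, 69.1, 0 and 4.33 CPM and the 11 stromal and erythroid markers to at most 3.65 CPM. WT replicate 2 was highest for the enterocyte, Paneth and T cell markers, and all 12 T cell markers were at 0 in WT replicate 1 and Setdb1-KO replicate 1. Of the enterocyte markers at most 1 was at 0 in any of the 4 libraries.

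The mucus genes chose the cells, so their levels are a description. Zg16 was the most abundant, at 48668 and 62251 CPM in WT and 36152 and 54798 CPM in Setdb1-KO, and it supplied 70.1% to 81.0% of the UMIs of the 4 genes. Muc2 was at 9227 and 5911 CPM in WT and 4446 and 4586 CPM in Setdb1-KO. Fcgbp was at 8824, 6423, 7081 and 7653 CPM. Clca1 was the least abundant, at 2662, 2257, 2425 and 2883 CPM. Muc2 was nevertheless the broadly detected one in WT, with a UMI in 98.8% and 96.8% of WT cells, and it was seen in 88.7% and 96.9% of Setdb1-KO cells. Clca1 was seen in 69.7%, 73.1%, 71.5% and 83.0% of cells. Median mucus shares were 4.18%, 4.64%, 3.19% and 4.34% of a cell's UMIs. Within 0.2 percentage points of the 1.5% limit there were 54, 11, 59 and 55 cells inside and 59, 13, 80 and 84 outside, so the limit cut through a continuous range.

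**Figure D1:**
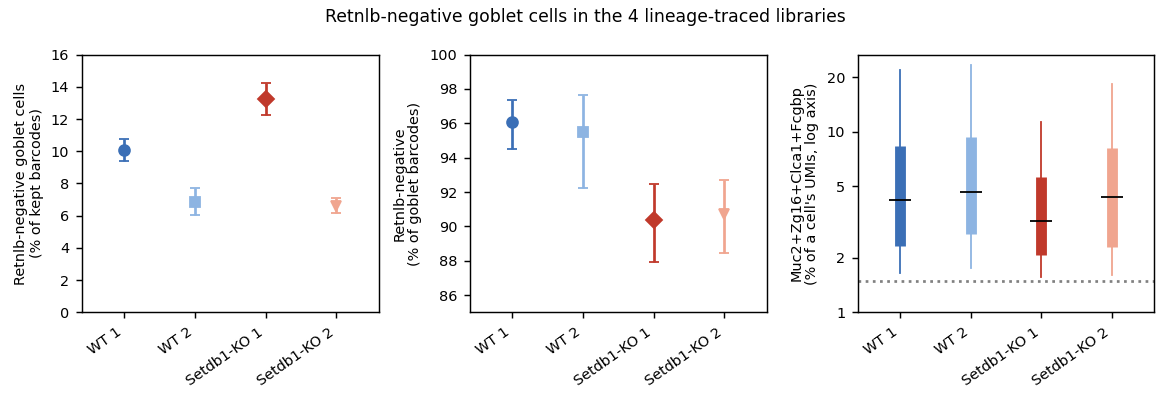
Retnlb-negative goblet cells in the 4 lineage-traced libraries, with each library's share of kept barcodes (left, %), share of goblet barcodes (middle, %, axis from 85) and mucus share per cell (right, % of UMIs, log axis). Points on the left and in the middle carry exact 95% binomial intervals, boxes on the right span the 25th to 75th percentiles with the median as a line, thin lines span the 5th to 95th, and the dotted line is the 1.5% limit. Shares of kept barcodes overlap between genotypes, and Retnlb-negative fractions are 96.1% and 95.5% in WT against 90.4% and 90.7% in Setdb1-KO.

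Setdb1 itself is a weak check of the genotype here, because its floxed exon 3 lies far from the 3′ end that was counted. Setdb1 was at 7.30 and 7.51 CPM in WT (10 and 5 UMIs) and at 9.13 and 7.69 CPM in Setdb1-KO (10 and 16 UMIs). The genotypes lay close together, and the gene did not pass the low-count filter.

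The first comparison asked whether the Retnlb-negative population changed in size. It made up 10.1% (exact 95% interval 9.41% to 10.8%) and 6.85% (6.05% to 7.71%) of kept barcodes in WT, and 13.2% (12.3% to 14.2%) and 6.61% (6.14% to 7.11%) in Setdb1-KO. Intervals cover counting error only. The means were 8.46% ± 2.29 and 9.92% ± 4.67 (SD, n = 2 libraries each), and the genotypes overlapped (two-sided exact permutation p = 1.0). The difference of 1.45 percentage points depended on the limits. With Defa under 5% the shares were 2.00% and 0.920% in WT and 11.9% and 5.20% in Setdb1-KO (difference 7.10). The median Defa share of chosen cells was 7.89% and 9.65% in WT and 1.86% and 2.27% in Setdb1-KO. That limit therefore removed mostly WT cells, and no change in size is read from it. The sign of the difference turned when cells were thinned (-0.84), at 1000 UMIs or more (-1.12), with mucus genes at 3% or more (-0.08) and with no Defa limit (-0.17). Among goblet cells alone, the Retnlb-negative fraction was 96.1% and 95.5% in WT and 90.4% and 90.7% in Setdb1-KO. This fraction was lower in both Setdb1-KO libraries than in both WT libraries, with means of 95.8% ± 0.448 in WT and 90.6% ± 0.258 in Setdb1-KO (SD, n = 2). The difference was -5.23 percentage points, with a two-sided exact permutation p of 0.33, the smallest that 2 against 2 libraries can give. Retnlb chose the cells, so the fraction is a description. Thinned to 1000 UMIs, the fractions were 96.4% and 97.5% in WT and 93.8% and 93.6% in Setdb1-KO.

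Free Retnlb RNA moved with genotype in the same way. Retnlb was at 24.4 and 17.4 CPM in the empty droplets of WT libraries and at 83.3 and 92.6 CPM in those of Setdb1-KO. Low-mucus cells, which should lack the gene, carried a Retnlb UMI in 0.762%, 1.67%, 4.57% and 3.6% of cells, against 3.89%, 4.53%, 9.63% and 9.26% of goblet cells. Median depths were 1422, 1182, 1053 and 2212 UMIs in the low-mucus cells. The share of goblet cells with Retnlb was above that background in each library. Of the Retnlb-positive cells 9, 6, 29 and 29 held a single Retnlb UMI. The part of free RNA in the genotype difference was not tested.

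The second comparison set Setdb1-KO against WT within the Retnlb-negative goblet cells, on UMIs summed per library. Most enterocyte markers, 5 of 9 tested Paneth markers and 5 of 22 tested goblet products were lower in Setdb1-KO, while 3 of 14 tested interferon genes and the trefoil peptide Tff2 were higher. The abundant products Tff3 and Spink4 differed less between genotypes than between replicates, and no secretory transcription factor was called. Of 7272 genes tested with edgeR's quasi-likelihood test, 15 (0.206%) rose and 144 (1.98%) fell in Setdb1-KO at a Benjamini-Hochberg adjusted p under 0.05, and the libraries of the genotypes did not overlap for any of these 159 genes, as for 2607 of all 7272 tested genes (35.8%). The median log2 fold change over all genes was 0.02. These calls rest on 2 libraries a side: without WT replicate 2 the counts were 0 and 0 (169 higher and 296 lower at an unadjusted p under 0.05), and without Setdb1-KO replicate 1 they were 3 and 19, while without WT replicate 1 they were 6 and 159.

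**Figure D2:**
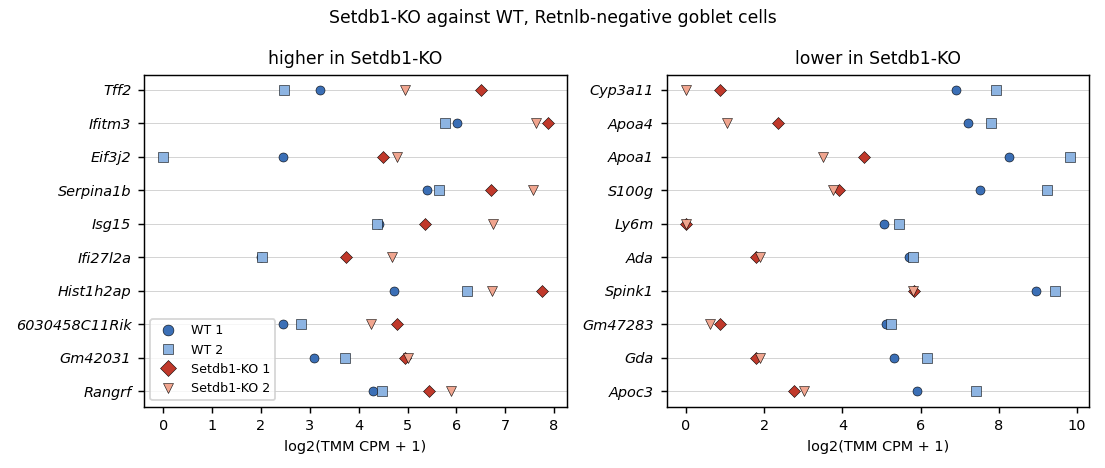
Level of 20 named genes, log2(CPM + 1) with CPM scaled by the trimmed mean of M-values, in Retnlb-negative goblet cells, 1 symbol per library. Left, the 10 risen genes of smallest adjusted p, right, the 10 fallen ones. Tff2 and Ifitm3 sit higher in both Setdb1-KO libraries than in both WT libraries, and Apoa4 and Spink1 sit lower.

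Levels in the following comparison are CPM scaled by edgeR's trimmed mean of M-values, in the order WT replicates 1 and 2, then Setdb1-KO replicates 1 and 2. Tff2, a trefoil peptide made mainly in gastric and Brunner's gland mucous cells, was at 8.24, 4.57, 89.7 and 30.0 CPM. Its level rose by 3.06 ± 0.50 on the log2 scale (SE; edgeR adjusted p = 0.00011). Both Setdb1-KO libraries lay above both WT libraries, and Setdb1-KO replicate 1 was the higher. Without Setdb1-KO replicate 1 the log2 fold change was 2.13 (adjusted p = 0.15), and without WT replicate 2 it was 2.81 (adjusted p = 0.75). 

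Of 25 genes of interferon response and nucleic acid sensing, 14 were tested, 3 rose and none fell, and their median log2 fold change was 0.46. Scaled to library size only, the list summed to 312, 305, 612 and 623 CPM in the chosen cells. It summed to 301, 310, 676 and 841 CPM in low-mucus cells of the same libraries and to 236, 240, 494 and 561 CPM in empty droplets. The list sum was thus also higher in Setdb1-KO outside the chosen cells. Ifitm3, a membrane protein that restricts virus entry, was at 63.7, 53.3, 232 and 197 CPM and rose by 1.86 ± 0.34 (log2, SE; edgeR adjusted p = 0.00068). Isg15, a ubiquitin-like modifier, was at 20.2, 19.8, 39.9 and 106 CPM and rose by 1.88 ± 0.40 (edgeR adjusted p = 0.0042). Bst2, also named tetherin, was at 18.0, 18.3, 25.7 and 74.6 CPM and rose too (edgeR adjusted p = 0.046). For Isg15 and Bst2 most of the difference came from Setdb1-KO replicate 2, since the log2 fold change without it was 0.96 for Isg15 and 0.48 for Bst2. Ifi27l2a, an interferon-induced gene outside the list, was at 3.00, 3.05, 12.5 and 24.5 CPM (log2 fold change 2.62). Irf7 was at 33.7, 32.0, 42.3 and 64.8 CPM and did not pass (edgeR adjusted p = 0.54). Of the 3 list members, 2 were called after the empty-droplet profile was subtracted, 1 by DESeq2, 1 without Setdb1-KO replicate 1, 1 without Setdb1-KO replicate 2 and 0 without WT replicate 2.

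These 3 genes share a letter pattern in their promoters. The core of the interferon-stimulated response element, taken as the letters GAAA, any 2 bases and GAAA again, was searched on both strands of RefSeq promoters of the GRCm38.p6 assembly, 250 bases before to 50 after each start. The 15 risen genes gave 10 promoters, and the core was found in 3 of them (30.0%), those of Isg15, Ifitm3 and Bst2. It was found in 8 of 141 promoters of fallen genes (5.67%, with 1 gene counted through a pair of promoters that share the site). Shares were 2.91% of the 7411 promoters of tested genes and 3.44% of all 32851 promoters. The element is that of interferon response and the 3 genes are interferon genes, so the 30.0% is only a description. The windows are shown because they are the sequence feature that these 3 genes have in common. Capitals mark the motif and the sequence is on the strand of the gene. Each promoter held more than 1 match, which overlapped each other in Isg15 and Bst2 and not in Ifitm3, and 1 is shown.
Isg15, chr4:156200871-156200900, minus strand: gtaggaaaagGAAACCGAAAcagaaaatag
Ifitm3, chr7:141010706-141010735, minus strand: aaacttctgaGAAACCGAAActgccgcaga
Bst2, chr8:71537577-71537606, minus strand: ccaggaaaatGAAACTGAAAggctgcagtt
The motif began 72 bases before the start of Isg15, 124 before that of Bst2 and 19 after that of Ifitm3. A match describes letters in a window and says nothing of binding.

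Other genes that rose were Serpina1b, a liver-type protease inhibitor (41.2, 48.7, 103 and 188 CPM, log2 fold change 1.72 ± 0.36), and the histone gene Hist1h2ap (25.5, 73.1, 215 and 106 CPM, 1.78 ± 0.41). Eif3j2, a copy of a translation initiation factor gene, was at 4.50, 0, 21.6 and 26.7 CPM. Rangrf, which takes part in nuclear import, was at 18.7, 21.3, 42.3 and 58.3 CPM. All 4 genes lay higher in both Setdb1-KO libraries. Serpina1b, Hist1h2ap and Eif3j2 have near-identical copies in the genome, so reads may have been split or assigned between copies.

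Fallen genes were led by absorptive genes. Of 20 enterocyte markers 19 were tested, 15 fell and none rose, and their median log2 fold change was -2.81. Apoa4, an apolipoprotein of chylomicrons, was at 148, 221, 4.15 and 1.09 CPM, -6.23 ± 0.50 on the log2 scale (SE; edgeR adjusted p = 3.5e-10). Apoa1, the main protein of high-density lipoprotein, was at 303, 905, 22.4 and 10.3 CPM (-5.24 ± 0.50). Both apolipoproteins were at least an order of magnitude apart between genotypes, with no overlap. Cyp3a11, a drug-metabolising cytochrome P450, had 319 UMIs in WT and 1 UMI in Setdb1-KO, a ratio of 498-fold with an exact counting interval of 88.7 to 19715. Rbp2, which carries retinol, was at 604, 2006, 175 and 194 CPM, and Fabp1, a fatty acid binding protein, at 446, 2687, 340 and 323 CPM. In Fabp1 and Rbp2 the highest value was that of WT replicate 2, which also had the most free RNA. Fabp2 (1957, 3722, 1309 and 2560 CPM) and Krt20, a keratin of mature villus cells (119, 169, 72.2 and 88.8 CPM), did not pass (edgeR adjusted p = 0.80 and 0.37). Other absorptive genes that fell were Alpi, the brush-border alkaline phosphatase (log2 fold change -3.75), Sis, sucrase-isomaltase (-1.90), Apoc3 (-4.06) and S100g, a calcium binding protein (-4.86).

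Free RNA moved with this group. Of the 144 fallen genes 134 were also lower in the empty droplets of Setdb1-KO, with a median log2 difference of -1.43, and all 15 risen genes were higher there, with a median of 1.34. Over all tested genes 6033 of 7272 were higher in Setdb1-KO empty droplets (median 0.44). At the upper bound, free RNA would supply a median of 20.5% of the WT level of a fallen gene, 11.2% for a risen gene and 9.30% for all tested genes. For Apoa4 the bound was 49.9, 54.2, 5.46 and 3.02 CPM, and for Apoa1 it was 120, 135, 14.7 and 12.0 CPM, so both WT libraries lay above it. Apoa4 lay below its bound in both Setdb1-KO libraries, and Apoa1 did so in Setdb1-KO replicate 2. With the empty-droplet profile subtracted, 12 of the enterocyte markers were called lower. Without WT replicate 2 the count was 0, and without Setdb1-KO replicate 1 it was 6. With marked doublets removed 14 of the enterocyte markers were called lower, and over all genes 109 of the 143 called genes that could be tested were still called.

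**Figure D3:**
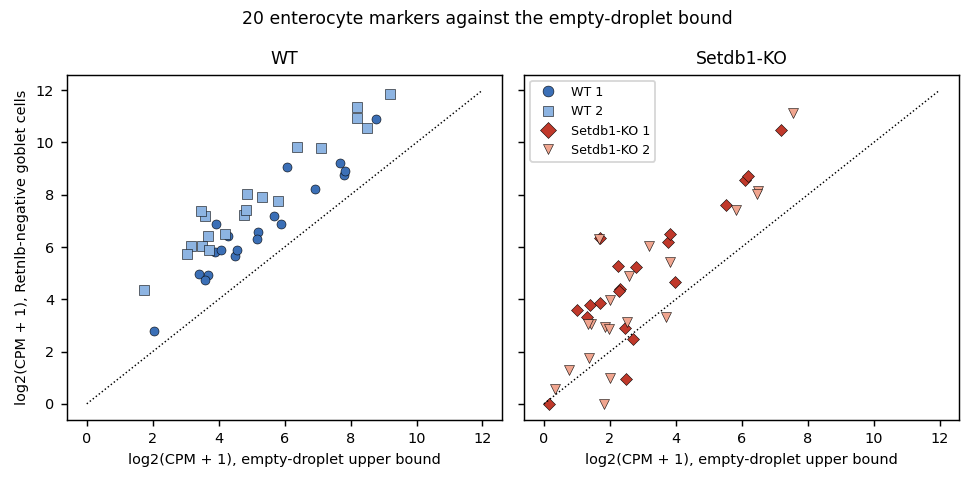
Level of 20 enterocyte markers in Retnlb-negative goblet cells (vertical) against the most that free RNA could supply if all Defa UMIs were free RNA (horizontal), both as log2(CPM + 1), 1 symbol per gene and library, WT left and Setdb1-KO right. The dotted line marks equal values. Apoa4 and Apoa1 lie above the bound in both WT libraries, while Apoa4 lies below it in both Setdb1-KO libraries and Apoa1 in Setdb1-KO replicate 2.

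The promoters of fallen genes were searched for CAAAGTCCA, a sequence of the type bound by HNF4 factors, regulators of absorptive genes. It was present in 4 of 141 promoters of fallen genes (2.84%), in 0.418% of the 7411 promoters of tested genes and in 0.475% of all 32851 promoters. The windows of 2 of the 4 are given, since Cyp3a11 and Alpi are named above, with the motif in capitals on the strand of the gene.
Cyp3a11, chr5:145879945-145879973, minus strand: aagagagtacCAAAGTCCAgtgatgcaaa
Alpi, chr1:87101607-87101635, minus strand: tagccagggaCAAAGTCCAtctctgattt
The motif began 109 bases before the start of Cyp3a11 and 19 before that of Alpi. The share in fallen genes rests on few promoters and is only a description. Such a match says nothing of binding, and a part of HNF4 factors in the fall was not tested.

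Some genes of the goblet product list fell. Of 24 products beside the mucus genes that chose the cells, 22 were tested, none rose, and Ang4, Itln1, Muc3, Sval1 and Pnliprp2 fell, with a median of -0.17 over the list. Ang4, a microbicidal ribonuclease of Paneth and goblet cells, was at 464, 582, 128 and 141 CPM, -1.96 ± 0.34 on the log2 scale (SE; edgeR adjusted p = 0.00033). After thinning it was found in 37.3%, 45.9%, 14.3% and 11.8% of chosen cells and in 45.5%, 51.5%, 21.6% and 14.6% of low-mucus cells, so its detection in the chosen cells did not exceed that background. Itln1, a lectin for microbial sugars, was at 1787, 1554, 397 and 642 CPM (-1.68, edgeR adjusted p = 0.0024). Sval1 was at 183, 119, 16.6 and 17.4 CPM, -3.15 ± 0.36 on the log2 scale (edgeR adjusted p = 4.6e-07). The WT libraries lay above the Setdb1-KO libraries for all 3. Muc3, a membrane mucin, was at 42.0, 77.7, 8.30 and 7.08 CPM. Ang4 has close copies in the genome, and Itln1 and Pnliprp2 also stand among the Paneth markers. Of 10 Paneth markers 9 were tested and 5 fell (Lyz1, Pnliprp2, Clps, Itln1 and Reg3b), with a median of -1.42. Lyz1, the Paneth lysozyme, was at 513, 736, 225 and 241 CPM, and with the empty-droplet profile subtracted 1 of these 5 was still called. Without WT replicate 2, and without Setdb1-KO replicate 1, no Paneth marker was called.

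Most of the abundant products did not pass the test. Tff3 was at 14239, 9330, 9877 and 13980 CPM, a log2 fold change of 0.02. Spink4 was at 72916, 42099, 41614 and 75964 CPM (0.03). In both, the replicates of each genotype differed from each other more than the genotype means did. Agr2 was at 14174, 10463, 12485 and 28688 CPM, a log2 fold change of 0.74 that did not pass (edgeR adjusted p = 0.50). Guca2a, the precursor of guanylin, was at 1794, 1179, 1383 and 1770 CPM (0.08). Reg4 was at 60.7, 88.4, 79.7 and 88.2 CPM (0.20), and Mptx1, a pentraxin, at 169, 39.6, 152 and 193 CPM (0.67, edgeR adjusted p = 0.76).

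No secretory transcription factor passed among 14 tested, with a median log2 fold change of -0.01. Atoh1 was at 100, 76.2, 103 and 138 CPM (0.44, edgeR adjusted p = 0.85). Spdef was at 81.7, 50.3, 37.4 and 70.3 CPM, and Klf4, a factor of goblet differentiation, at 241, 232, 146 and 169 CPM (-0.58, edgeR adjusted p = 0.72). Xbp1, which expands the secretory apparatus, was at 214, 157, 172 and 215 CPM, and Sox9 at 104, 65.5, 168 and 94.2 CPM. For Klf4, and in the other direction for Atoh1, the genotypes did not overlap, while for Spdef, Xbp1 and Sox9 they did.

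Calls were few among the genes of mucin making. Of 27 tested genes of mucin glycosylation 2 fell: Fut2, which fucosylates mucins (45.7, 27.4, 12.5 and 13.6 CPM, edgeR adjusted p = 0.018), and the sialyltransferase gene St3gal4 (70.4, 92.9, 25.7 and 38.7 CPM, edgeR adjusted p = 0.025), and the list median was -0.25. None of 39 genes of endoplasmic reticulum chaperones and the unfolded protein response was called, and 32 of the 39 had a log2 fold change above 0 (median 0.26). Among 23 genes of granules and vesicles, S100a6, a calcium binding protein, fell (2963, 2515, 690 and 1473 CPM, log2 fold change -1.34, edgeR adjusted p = 0.031).

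Other lists held few calls. No stem marker was called of 11 tested (median 0.75) and no proliferation marker of 17 (median 0.49), and Setdb1-KO replicate 1 set the highest sum of both lists, at 1429 CPM against 548 to 634 CPM for stem markers and 3206 CPM against 1770 to 2315 CPM for proliferation markers. Olfm4, a stem marker, was at 125, 187, 428 and 132 CPM, so the 2 Setdb1-KO libraries differed more from each other than Setdb1-KO replicate 2 did from WT. The granins Chga (31.5, 62.5, 6.64 and 3.81 CPM) and Chgb (72.0, 107, 42.3 and 21.2 CPM), stored in hormone granules, fell among 4 tested enteroendocrine markers. No gene passed of 8 secretory progenitor markers, 5 of MHC class II, 9 of MHC class I presentation, 12 of the H3K9 methylation machinery, 7 p53 targets, 4 regenerative genes and 11 stress genes. At an unadjusted p under 0.05 there were 637 genes in the whole comparison. No tuft, T cell or stromal marker passed the low-count filter.

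Among fallen genes outside the lists, Spink1, a trypsin inhibitor, was at 495, 695, 55.6 and 55.0 CPM, -3.42 ± 0.37 on the log2 scale (SE; edgeR adjusted p = 1.7e-07). Ada, adenosine deaminase, was at 51.0, 54.8, 2.49 and 2.72 CPM, and Gda, guanine deaminase, at 39.0, 70.1, 2.49 and 2.72 CPM. Both purine enzymes were close to the floor of detection in Setdb1-KO, where 3 UMIs correspond to 2.74 and 1.44 CPM. Ly6m was detected with 71 UMIs in WT and none in Setdb1-KO, at least 36.9-fold lower against a floor of 3 UMIs over both Setdb1-KO libraries. The predicted gene Gm47283 had 69 and 2 UMIs, a ratio of 53.8-fold (exact counting interval 14.3 to 453). A further 11 of the 144 fallen genes were Defa genes, which were used in choosing the cells and are not counted as a finding.

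The third comparison set Retnlb-negative against Retnlb-positive goblet cells within each library. Retnlb defined the groups, and a deeper cell has more chance of a Retnlb UMI: median UMIs of positive cells were 2146, 1855, 968 and 3581. The differences are therefore given as a description with no p, and their standard errors are derived from edgeR's F statistic. In a fit with library as a term, 22 of 3984 genes (0.552%) were higher and 35 (0.879%) lower in Retnlb-negative cells at an adjusted p under 0.05, of which 20 and 33 were not used in the choice. Nothing is read from these shares, since the rule used this contrast. Retnlb-positive cells also held less of the 4 mucus genes, at 31222, 34981, 41029 and 59716 CPM in sum against 69381, 76842, 50104 and 69920 CPM in Retnlb-negative cells. With mucus genes at 3% or more in both groups, 11 of the 47 calls that could be tested were still called and 2 of the 47 turned sign.

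**Figure D4:**
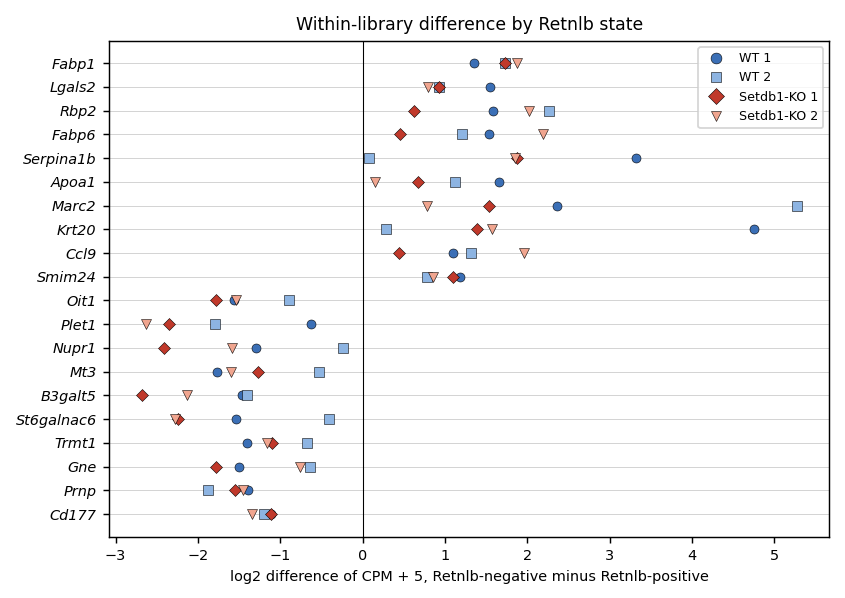
Log2 difference of CPM + 5, Retnlb-negative minus Retnlb-positive goblet cells, for named genes, 1 symbol per library. The vertical line marks no difference. Fabp1 and Lgals2 lie to its right in each library, and Oit1, Plet1 and Nupr1 lie to its left in each.

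Enterocyte markers, Lgals2 and Tff3 were higher in Retnlb-negative cells. Fabp1 was at 485, 2915, 371 and 327 CPM in Retnlb-negative cells and at 187, 874, 108 and 85.2 CPM in Retnlb-positive cells, a log2 difference of 1.73 ± 0.16 (SE, 4 libraries). Lgals2, a galactose-binding lectin of the epithelium, was at 19186, 14262, 13725 and 27710 CPM against 6574, 7464, 7227 and 15900 CPM (1.05 ± 0.10). Every library showed the same direction for both genes. With mucus genes at 3% or more the differences were 1.64 for Fabp1, 0.71 for Lgals2 and 0.50 for Tff3. Krt20 was at 130, 183, 78.8 and 90.0 CPM against 0, 150, 27.0 and 26.9 CPM (1.58). Tff3 was at 15486, 10120, 10779 and 14175 CPM against 5970, 6091, 6713 and 8896 CPM (0.86 ± 0.10). Lypd8, which keeps flagellated bacteria off the epithelium, was at 928, 873, 676 and 883 CPM against 374, 499, 521 and 556 CPM (0.74). The chemokine gene Ccl9 was also higher (1.25), so Tff3, Lypd8 and Ccl9 were the 3 of 20 tested goblet products that were higher in Retnlb-negative cells at that threshold, and Klk1, Reg4, Mptx1 and Muc4 were the 4 that were lower. Among 15 tested enterocyte markers 5 were higher (Fabp1, Fabp2, Apoa1, Rbp2 and Krt20) and none lower.

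Genes lower in Retnlb-negative cells formed another set. Oit1, a secreted protein, was at 541, 362, 184 and 260 CPM against 1611, 674, 642 and 762 CPM in Retnlb-positive cells (-1.50 ± 0.15). Nupr1, a stress-induced nuclear protein, was at 2352, 1672, 455 and 1569 CPM against 5783, 1972, 2434 and 4703 CPM (-1.43 ± 0.19). Plet1, an epithelial surface protein, was at 138, 82.6, 37.1 and 38.7 CPM against 216, 300, 210 and 265 CPM (-2.03 ± 0.26). The direction held in each library for all 3, and with mucus genes at 3% or more the differences were -0.79 for Oit1, -0.73 for Nupr1 and -0.95 for Plet1. Also lower were B3galt5, a galactosyltransferase gene (-2.16), St6galnac6, a sialyltransferase gene (-2.04), and Gne, the first enzyme of sialic acid synthesis (-1.35). None of these 3 is in the mucin glycosylation list, whose 23 tested genes had no call and a median of 0.00. Atoh1 was at 109, 82.6, 112 and 140 CPM against 144, 99.9, 216 and 157 CPM (-0.48 ± 0.21). The differences were 0.02 for Spink4 and 0.03 for Agr2. The smallest library of positive cells held 12 cells, in WT replicate 2. Without that library 27 genes were higher and 53 lower. There were 12 and 22 without WT replicate 1, 14 and 15 without Setdb1-KO replicate 1, and 9 and 12 without Setdb1-KO replicate 2.

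The fourth comparison asked whether the genotype effect differed between Retnlb-negative and Retnlb-positive goblet cells, fitted as an interaction with edgeR. Genotype was not used in the choice of cells but the Retnlb division was, so single genes are described without a p. Of 3984 genes none (0.0%) had a more positive effect in Retnlb-negative cells by edgeR or DESeq2 (49 at an unadjusted p under 0.05 in edgeR), and 12 (0.301%) had a more negative one. Of the 12, Clca1 and Zg16 were used in choosing the cells and are left out. Mptx1 had the most negative value of the other 10. In Retnlb-negative cells Mptx1 was at 165 and 39.1 CPM in WT and 167 and 170 CPM in Setdb1-KO. In Retnlb-positive cells it was at 40.5 and 0 CPM in WT (3 and 0 UMIs) and 3454 and 10189 CPM in Setdb1-KO (509 and 2657 UMIs). The genotypes lay far apart in the Retnlb-positive cells and close together in the Retnlb-negative cells, and the interaction was -7.49 ± 0.59 (log2, SE).

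Of 20 tested goblet products Ang4, Reg4, Mptx1 and Sval1 were among the calls, and of 8 tested Paneth markers none was. Ang4 in Retnlb-negative cells was at 452, 574, 141 and 125 CPM, and in Retnlb-positive cells at 284, 606, 502 and 1522 CPM, an interaction of -3.35 ± 0.40 (log2, SE). Spink1 was at 482, 685, 61.2 and 48.6 CPM against 81.1, 158, 115 and 1181 CPM (-5.98 ± 0.68). For both genes the Retnlb-negative cells were lower in Setdb1-KO, and the Retnlb-positive cells of Setdb1-KO replicate 2 held the highest value. Reg4 was at 203, 26.4, 631 and 778 CPM in Retnlb-positive cells and near the same level in both genotypes of Retnlb-negative cells (-2.23 ± 0.48). Sct, the hormone secretin, was at 280, 225, 302 and 523 CPM in Retnlb-negative cells and 54.0, 52.7, 326 and 510 CPM in Retnlb-positive cells (-2.43 ± 0.49). In the Retnlb-positive cells of each WT library Spink1 had 6 UMIs and Sct at most 4, so their interactions rest on few molecules. Sycn, a zymogen granule protein (-3.07), Sval1 (-4.95), S100a6 (-1.21), Ceacam1 (-1.86) and the carbonic anhydrase gene Car2 (-2.25) completed the group. With 1 WT library left out, the interaction rests on the 31 or 12 Retnlb-positive cells of the other WT library. Without Setdb1-KO replicate 2 the Sval1 interaction was -1.08 and no longer passed. Without WT replicate 2, 24 genes had a more negative effect and 1 a more positive one, and without WT replicate 1 there were 23 and 2.

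The fifth comparison set the genotype effect in lineage-traced cells against that in 3093 cells of the Lgr5+ sort that met the same rule. The cells of the Lgr5+ sort were deeper, with medians of 4324.5 to 8217 UMIs, and the sorts are separate libraries, so sort and library preparation cannot be told apart. The paper attributes mature goblet cells in that sort to its gating and incomplete enrichment, and calls them non-GFP+. The paper also counts a precursor goblet cluster among the cells that expressed GFP mRNA. By PCR it found loss of the floxed Setdb1 exon in GFP+ sorts of both mouse lines, each taken as a whole. Mice of the Lgr5+ sort carried no reporter, and deletion was not shown for the goblet cells of either sort alone. Of 9848 genes, 7 (0.0711%) had a more positive effect and 79 (0.802%) a more negative effect in the traced cells. The counts were 6 and 45 without WT replicate 2, 8 and 50 without Setdb1-KO replicate 1, 6 and 39 without Setdb1-KO replicate 2, 4 and 104 without WT replicate 1, and 10 and 47 without replicate 2 of the Lgr5+ Setdb1-KO sort. Within the Lgr5+ sort alone 13 genes were higher and 14 lower in Setdb1-KO.

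Ifitm3 and Isg15 stood among the 7. Ifitm3 was at 65.1 and 54.4 CPM in traced WT cells and 236 and 199 CPM in traced Setdb1-KO cells, and at 94.3, 167, 66.0 and 108 CPM in the Lgr5+ sort in the same order, a difference of effects of 2.41 ± 0.42 (log2, SE; edgeR adjusted p = 0.0060). Isg15 was at 20.7, 20.2, 40.4 and 107 CPM in traced cells and 52.7, 38.4, 24.7 and 27.0 CPM in the Lgr5+ sort (2.70 ± 0.50, edgeR adjusted p = 0.011). Both genes were higher in Setdb1-KO in the traced cells and not in the Lgr5+ sort. All 17 tested interferon genes had a difference above 0 (median 1.16), and 2 were called. In the Lgr5+ sort alone the same 17 genes had a median log2 fold change of -0.57 with 1 above 0 and none called, so lower values in the Lgr5+ sort also entered the difference. Ceacam10 was at 96.5, 141, 13.1 and 18.6 CPM in the Lgr5+ sort and 60.5, 48.2, 42.9 and 71.6 CPM in traced cells (2.93 ± 0.41), so here the genotypes lay far apart in the Lgr5+ sort. Cd177, a surface glycoprotein, followed the same pattern at 25, 36.2, 4.28 and 3.88 CPM in the Lgr5+ sort and 41.4, 28.0, 29.5 and 27.0 CPM in traced cells (2.55 ± 0.41).

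Absorptive genes led the more negative effects. Apoa4 was at 152, 225, 4.21 and 1.10 CPM in traced cells and 3.00, 2.17, 2.75 and 9.57 CPM in the Lgr5+ sort (-7.68 ± 0.73, edgeR adjusted p = 2.1e-05). Spink1 was at 506, 708, 56.4 and 55.6 CPM in traced cells and 39.0, 35.5, 25.4 and 38.3 CPM in the Lgr5+ sort (-3.23 ± 0.37). The traced WT libraries held the high values, and the traced Setdb1-KO libraries lay nearer the levels of the Lgr5+ sort. Gsta1, a glutathione transferase, showed it too, at 559, 948, 82.5 and 74.3 CPM in traced cells and 100, 74.9, 81.0 and 83.0 CPM in the Lgr5+ sort (-3.17 ± 0.38). Of 20 tested enterocyte markers 12 had a more negative effect in traced cells (median -2.96), and 5 of 19 with the empty-droplet profile subtracted. Sval1 was the goblet product with the smallest p (-2.41 ± 0.38, edgeR adjusted p = 0.0024), whereas for Ang4 (-0.39) and Itln1 (-1.12) the effects in the 2 sorts did not differ beyond the spread (edgeR adjusted p = 0.92 and 0.47).

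Variation within the Retnlb-negative population was described by dividing the cells of each library at its median mucus share, into mucus-low and mucus-high cells. The same 4 genes that chose the cells made this division, so it is a description with no p. Of 4794 genes 239 (4.99%) were higher and 221 (4.61%) lower in mucus-high cells at an adjusted p under 0.05 with library as a term, and 236 of the 239 were not used in the choice. Without WT replicate 1 there were 149 and 138, and without Setdb1-KO replicate 1 there were 202 and 139. The threshold serves only to count genes, and nothing is read from these shares. Zg16 accounted for most of the division, with 8749 to 18291 CPM in mucus-low and 59030 to 124173 CPM in mucus-high cells. Muc2 was at 9980, 6567, 3239 and 4618 CPM in mucus-low and 9673, 5980, 5284 and 5540 CPM in mucus-high cells, slightly lower in mucus-high cells of both WT libraries and higher in those of both Setdb1-KO libraries.

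**Figure D5:**
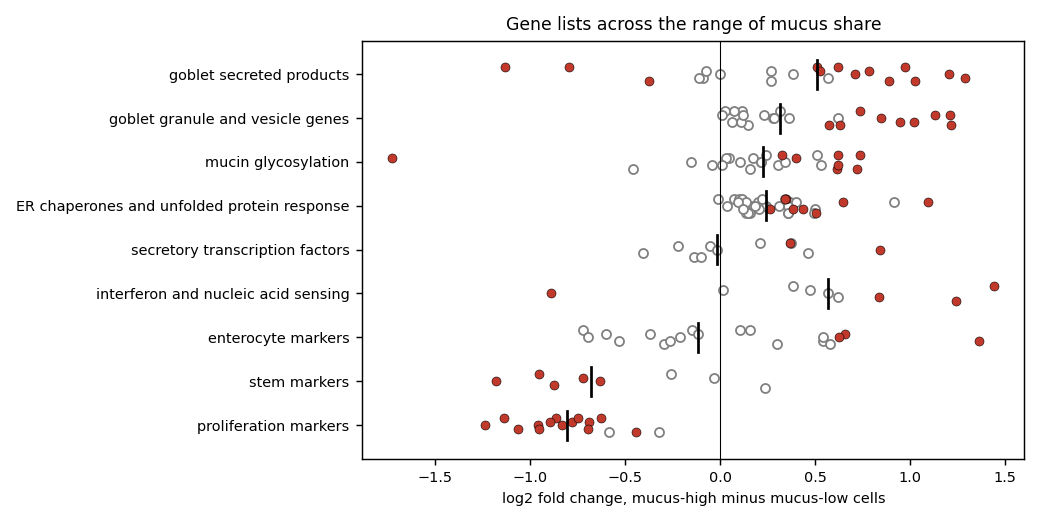
Log2 fold change between mucus-high and mucus-low Retnlb-negative goblet cells for the genes of 9 lists, 1 circle per gene, filled where past the threshold used for counting (adjusted p under 0.05, a description), with each list's median as a bar. Of 16 proliferation markers 14 are filled and lie below 0, and of 21 goblet products 10 are filled above 0 and 3 below.

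Mucus-high cells held more of other goblet products. Tff3 was at 7561, 5488, 6279 and 9449 CPM in mucus-low and 23026, 15006, 14630 and 17503 CPM in mucus-high cells (log2 difference 1.29 ± 0.08, SE). Among the Paneth markers (8 tested, median 0.21, 3 past the threshold above 0 and Nupr1 below), Reg3g, a lectin that kills Gram-positive bacteria, was at 1512, 2608, 491 and 1388 CPM against 3807, 7046, 1390.2 and 2411 CPM (1.25 ± 0.08). Spink4 (0.79), Agr2 (0.51), Lypd8 (1.03) and Guca2a (0.62) were higher as well. The median log2 difference was 0.51 over 21 tested goblet products, of which 10 were past the threshold above 0 and 3 below. It was 0.31 over 23 granule and vesicle genes (9 and 0) and 0.24 over 37 genes of endoplasmic reticulum chaperones and the unfolded protein response (8 and 0), against -0.02 over all genes. Examples were Fer1l6 (1.21), the actin-severing protein gene Scin (1.02), Bcas1 (1.13) and the chaperone gene Hspa5 (0.51). The transcription factors Klf4 (166, 155, 109 and 144 CPM against 347, 349, 200 and 186 CPM, 0.84 ± 0.12) and Xbp1 (0.37) were higher, Atoh1 differed by 0.37 ± 0.14 and Spdef by -0.10 ± 0.18. Of 11 tested secretory transcription factors 5 lay above 0 (median -0.01), and only Klf4 and Xbp1 were past the threshold. Krt20 (1.36) and Cdkn1a, an inhibitor of the cell cycle (1.28), were also higher. Krt20 is an enterocyte marker, and of 19 tested enterocyte markers 9 lay above 0 and 3 were past the threshold above 0 (median -0.12).

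Cell cycle and stem genes were lower in mucus-high cells. Mki67 was at 55.5, 44.0, 98.4 and 40.3 CPM in mucus-low and 25, 28.2, 37.5 and 15.0 CPM in mucus-high cells (-1.24 ± 0.22). Top2a, which untangles DNA for division, was at 158, 117, 250 and 98.9 CPM against 51.6, 60.0, 153 and 58.2 CPM (-0.96 ± 0.15). Olfm4 was at 165, 246, 586 and 168 CPM against 90.0, 138, 305 and 96.3 CPM (-0.87 ± 0.12). All 4 libraries showed the same direction for these 3 genes. The median log2 difference was -0.80 over 16 tested proliferation markers, of which 14 were past the threshold, and -0.68 over 8 stem markers, of which 5 were. After thinning to 1000 UMIs 4 of 9 proliferation markers were lower, and with DESeq2 6 of 20.

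Nupr1 was at 3149, 2464, 558 and 2442 CPM in mucus-low and 1215, 607, 309 and 720 CPM in mucus-high cells (-1.53 ± 0.10). Oit1 (-1.44), Plet1 (-2.18), St6galnac6 (-2.59), B3galt5 (-1.89) and Mt3 (-1.34) were lower in mucus-high cells. Of the mucin glycosylation genes 24 were tested, with 20 above 0, a median of 0.23, 7 past the threshold above 0 and only Fut2 past it below (-1.72). Of 9 tested interferon genes 8 lay above 0 in mucus-high cells, with a median of 0.57 and 3 past the threshold, and Ifitm3 alone was past it below. Isg15 was at 8.76, 8.80, 25.5 and 56.4 CPM in mucus-low and 35, 35.3, 58.9 and 146 CPM in mucus-high cells (1.44 ± 0.21), Irf7 was higher (1.24), and Ifitm3 was lower at 89.1, 76.3, 309 and 250 CPM against 40.0, 31.8, 175 and 144 CPM (-0.89 ± 0.14). In both mucus-low and mucus-high cells Isg15 and Ifitm3 were higher in the Setdb1-KO libraries than in the WT libraries.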

How the data were processed

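Raw UMI counts per gene and barcode were deposited by the authors for every barcode, made per the labels with Cell Ranger 6.1.1 on 3′ single-cell libraries. Gene names and barcodes were deposited beside the counts. The members, gene lists and tests were chosen with earlier results of these data known. Cells were filtered as stated, UMIs were summed per library, and genes passing filterByExpr were scaled by the trimmed mean of M-values and tested with edgeR 4.0.16 (quasi-likelihood, Benjamini-Hochberg adjustment, R 4.3.3). Each SE of a log2 value was its absolute size divided by the square root of edgeR's F statistic, so it restates that test. Shares used an exact permutation test over libraries (SciPy 1.17.1). DESeq2 1.42.0, other limits on cells, thinning to 1000 UMIs, removal of marked doublets (simulated-neighbour score) and leaving out each library were alternatives. Doublets were otherwise kept. Named genes were the goblet products and secretory transcription factors, up to 4 of highest mean level per other list, and per comparison the 10 of smallest adjusted p each way with a log2 fold change of at least 1 and no overlap. Alpi, Bcas1, Clps, Fer1l6, Fut2, Hspa5, Lyz1, Mki67, Scin, Sis, St3gal4 and Top2a were named after their values were seen. Of 370 listed genes 367 were found. The fits were also run on counts simulated from pooled gene means. Those counts held no free-RNA or doublet differences between genotypes, so that run says nothing about them.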

Additional observations from a re-analysis of the deposited data

Results flagged for a closer look

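Retnlb chose the cells, so the contrast of genotype effects between Retnlb states is a description. Retnlb-positive cells held 123 and 26 Retnlb UMIs in WT and 436 and 1133 in Setdb1-KO. The fitted genotype effect differed between Retnlb-negative and Retnlb-positive goblet cells, by the interaction term, for 10 genes. Its log2 value was -7.49 for Mptx1, -5.98 for Spink1, -3.35 for Ang4, -3.07 for Sycn, -4.95 for Sval1, -1.21 for S100a6, -1.86 for Ceacam1, -2.43 for Sct, -2.25 for Car2 and -2.23 for Reg4. Mptx1, Spink1, Sval1 and Sct had at most 7 UMIs in the Retnlb-positive cells of each WT library, so their fitted values depend on the prior count and are not bounds.

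The genotype effect differed between lineage-traced cells and the Lgr5+ sort for 17 named genes. It was more positive in traced cells for Ceacam10 (2.93), Cd177 (2.55), Ifitm3 (2.41), Isg15 (2.70), Slc35g2 (3.35), Ppic (3.58) and Xlr3a (7.85). It was more negative for Apoa4 (-7.68), Apoa1 (-6.29), Sycn (-3.70), Spink1 (-3.23), Apoc3 (-5.26), Gsta1 (-3.17), Cyp3a13 (-3.33), Sult6b2 (-7.60), Gm15293 (-3.63) and Gstm3 (-3.23). Xlr3a had 0 UMIs in traced WT cells and 19 in traced Setdb1-KO cells, at least 4.06-fold higher against a floor of 3 UMIs over the WT libraries, and Sult6b2 had 62 and 1 UMIs. Their fitted values are not bounds. With 2 libraries per genotype, no test for a single outlying library was possible within a group.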

How the results depend on the processing

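The Setdb1-KO comparison had 15 higher and 144 lower genes. It gave 5 and 78 after thinning, 7 and 78 with the empty-droplet profile subtracted, 5 and 84 with DESeq2, 84 lower with Defa under 5% and 30 higher without the low-count filter. Leaving out 1 library gave 0 to 17 higher and 0 to 159 lower. Replicate numbers were not shown to pair libraries (r = -0.0055 over 7272 genes), and a replicate block gave 23 and 167, and in the comparison of sorts 5 and 55.

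Retnlb-negative cells had 22 higher and 35 lower genes: 6 and 10 with mucus genes at 3% or more, 10 and 17 after thinning, 12 and 14 with DESeq2, 74 higher without the filter and 19 lower after subtraction. Leaving out 1 library gave 9 to 27 and 12 to 53. The interaction gave 7 after subtraction and 6 with DESeq2, and 8 to 24 more negative and 0 to 2 more positive genes with 1 library left out. It and the Retnlb contrast were not run with Defa under 5%, which left WT replicate 2 without Retnlb-positive cells.

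Between sorts, the more positive count of 7 was 3 after subtraction, 39 without the filter and 4 to 10 with 1 library left out. The more negative count of 79 was 38 with Defa under 5%, 48 without doublets, 37 thinned, 19 subtracted, 163 unfiltered and 39 to 104 with 1 library left out. Mucus-high cells (239 higher, 221 lower) gave 115 and 67 at 3% mucus, 119 and 70 with Defa under 5%, 89 and 53 thinned, 85 and 35 with DESeq2, and 149 to 220 and 138 to 188 with 1 library left out.

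The genotype difference in the share of kept barcodes was 7.10 points with Defa under 5%, a limit that removed mostly WT cells. It was below 0 when thinned, at 1000 UMIs or more, at 3% mucus and with no Defa limit, and -1.85 to 4.76 with 1 library left out. The genotype difference in the Retnlb-negative fraction was -6.50 at 3% mucus, -6.11 with Defa under 5%, -4.84 without doublets, -3.26 thinned and -5.55 to -4.92 with 1 library left out. Of 1769 values for 113 named genes in the genotype comparison, 1627 kept direction and call, 121 lost and 21 gained the call, and 0 reversed. Many of these genes were not called in the main fit, so keeping the call is easily met for them. Of the 159 called genes, some of which could not be tested each time, 79 were still called with Defa under 5%. The number was 81 after thinning, 85 after subtraction, 86 with DESeq2 and 109 to 159 under the other settings that kept every library. Values that reversed were S100a6 between Retnlb states at 3% mucus (0.11) and, between mucus-high and mucus-low cells, Fabp1 (-0.53) and Klk1 (0.46) at 3% mucus, Cdca7 thinned (0.17), and Itln1 (-0.33) and Pnliprp2 (-1.06) without a Defa limit. Causes were not tested. Subtraction and removal of the Defa limit were chosen after seeing the data.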
